A study of Mus musculus with 16 samples.

Results

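The genes described here encode the MHC class I and class II molecules of the mouse, named H2, and the machinery that loads them with peptide. They were chosen by symbol: every gene whose symbol starts with H2-, together with B2m, Tap1, Tap2, Tapbp, Psmb8, Psmb9, Psmb10, Nlrc5, Cd74 and Ciita, if its normalised count was at least 10 in at least 2 of the 16 libraries. Of 47 candidates among 47069 genes, 35 met that level. They comprised 16 class I chains, 8 genes of class I assembly and peptide supply, 10 class II genes, and H2-Ke6, a steroid dehydrogenase that carries an H2 symbol only for its place in the locus. Among the 12 candidates left out, 9 had no read in any library, and H2-M5, H2-Eb2 and H2-M10.6 peaked at 8.69, 8.20 and 1.14. The member nearest the limit from inside was H2-Oa, which peaked at 11.4.

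All 16 libraries came from mice treated with DEN (diethylnitrosamine), a carcinogen that is activated in hepatocytes and induces hepatocellular carcinoma. The study compared a high-fructose diet with a cornstarch diet in this model. The libraries were from tumours at 9 months on fructose (3) and on cornstarch (2), livers at 9 months on fructose (3) and on cornstarch (3), and livers at 5 months on fructose (2) and on cornstarch (3). The labels give no strain or sex and do not tie a tumour to a liver. Nor do they say that each library of a group is a different mouse, so p-values here speak of the spread among these libraries, which may be technical.

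Class I molecules sit on nearly every nucleated cell and show peptides from inside the cell to CD8 T cells. Their heavy chain pairs with β2-microglobulin, the product of B2m, after the proteasome has cut the peptides and the TAP transporter has moved them into the endoplasmic reticulum. Class II molecules show peptides from engulfed material to CD4 T cells and are made mainly by dendritic cells, B cells and macrophages, the liver's Kupffer cells among them. Cd74, the invariant chain, escorts class II chains to the endosome, H2-DM exchanges its remnant for peptide, and H2-O restrains H2-DM. Ciita is the coactivator that class II promoters require, and Nlrc5 is its counterpart for class I. Hepatocytes, which make up most of the RNA in a liver sample, are known for class I with little class II.

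Ciita and Nlrc5 act through a promoter module whose X2 and Y boxes lie just before the transcription start, and class I promoters add a site for NF-κB and an interferon-stimulated response element. The 250 bases before and 50 after the start were available for 25 of the 35 members, 2 of them with 2 windows, from RefSeq on GRCm38.p6. They were searched on both strands for CCAAT (the Y box), TGACG and TGATG (X2-like sites), GAAA followed by GAAA after 2 bases (the interferon element), and for NF-κB sites GGGGA followed by TCCCC after 1 base and GGGA followed by TCCC after 2 bases. TGATG and TGACG can share letters where they follow each other closely. The stretches upstream of the start shown next are from class II genes that differed by diet in 9-month livers, from H2-M3, a class I gene that differed with them, and from class I genes that did not. Each reads 5′ to 3′ in the direction of the gene, and capitals mark every match to a searched motif on either strand, so that ATTGG is the Y box on the opposite strand.
H2-Aa (chr17:34287824-34288023, minus strand): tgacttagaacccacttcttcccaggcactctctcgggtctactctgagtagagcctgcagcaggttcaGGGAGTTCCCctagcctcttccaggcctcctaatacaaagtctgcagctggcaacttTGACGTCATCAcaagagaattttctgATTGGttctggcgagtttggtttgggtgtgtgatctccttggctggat
H2-Eb1 (chr17:34305667-34305866, plus strand): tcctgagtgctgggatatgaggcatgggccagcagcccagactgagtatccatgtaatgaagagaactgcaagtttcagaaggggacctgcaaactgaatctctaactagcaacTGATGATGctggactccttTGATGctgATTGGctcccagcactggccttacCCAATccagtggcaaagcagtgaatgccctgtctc
H2-M3 (chr17:37270034-37270233, plus strand): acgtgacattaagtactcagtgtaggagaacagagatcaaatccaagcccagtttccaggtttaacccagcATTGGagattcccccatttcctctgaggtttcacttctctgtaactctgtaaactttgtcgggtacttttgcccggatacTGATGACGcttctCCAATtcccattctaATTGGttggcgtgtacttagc
H2-K1 (chr17:34000348-34000547, minus strand): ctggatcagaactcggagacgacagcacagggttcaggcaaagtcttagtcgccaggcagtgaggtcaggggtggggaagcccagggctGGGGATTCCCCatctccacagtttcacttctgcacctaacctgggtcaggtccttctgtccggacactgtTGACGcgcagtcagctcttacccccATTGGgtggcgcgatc
H2-D1 (chr17:35262844-35263093, plus strand): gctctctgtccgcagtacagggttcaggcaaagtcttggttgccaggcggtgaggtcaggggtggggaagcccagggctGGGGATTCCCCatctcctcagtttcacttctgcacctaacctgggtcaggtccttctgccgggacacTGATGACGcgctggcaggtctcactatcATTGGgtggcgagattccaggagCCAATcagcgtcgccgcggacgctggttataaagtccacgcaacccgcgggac
B2m (chr2:122147487-122147686, plus strand): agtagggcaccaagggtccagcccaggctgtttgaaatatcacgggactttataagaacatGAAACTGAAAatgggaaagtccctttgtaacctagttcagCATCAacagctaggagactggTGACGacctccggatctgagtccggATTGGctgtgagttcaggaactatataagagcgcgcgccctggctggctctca
H2-Q10 (chr17:35469889-35470088, plus strand): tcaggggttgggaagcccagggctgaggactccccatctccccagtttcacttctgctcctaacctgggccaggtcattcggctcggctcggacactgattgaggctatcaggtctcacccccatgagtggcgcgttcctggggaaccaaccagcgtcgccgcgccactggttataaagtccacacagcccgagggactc

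H2-Aa and H2-Eb1 hold X2-like letters followed by the Y box, and so do H2-M3, H2-D1, B2m and H2-K1. H2-Q10, the class I gene with the second highest level here, held none of the 6 motifs in its window. CCAAT was found in 7 of 7 class II genes with a window, in 10 of 11 class I chains and in 4 of 6 genes of class I assembly and supply, against 37.4% of 32851 promoter windows in the table. These counts are per gene, and a gene with 2 windows counts if either holds the motif, while the shares are per window. Of the 2 windows of H2-DMa, 1 held none of the 6 motifs. TGATG was found in 6 of 7 class II genes and 9 of 11 class I chains, against 39.3% of all windows. TGACG was found in 1 of 7 class II genes and 7 of 11 class I chains, against 20.8%. The longer NF-κB motif was found in 3 of 11 class I chains, H2-D1, H2-K1 and H2-Q8, and the shorter in H2-Q4 and H2-Aa. All windows held those motifs in 0.0487% and 0.664% of cases. The interferon element was found in B2m and 2 class I chains, against 3.44% of all windows. A match describes letters and not a bound site.

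Of the 35 members, 30 lie on chromosome 17 between positions 33915899 and 37483552 (GRCm38, GENCODE M21). B2m is on chromosome 2, Nlrc5 and Psmb10 on chromosome 8, Ciita on chromosome 16 and Cd74 on chromosome 18. The identifier labelled H2-Q8 in the deposited table carries the symbol H2-Q6 in GENCODE M21, and is called H2-Q8 here as in the table. Class I chains share long stretches of sequence, and reads of the H2-Q and H2-T genes could have been assigned among near-identical copies, so their separate values are uncertain.

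The table's values are read counts divided by a size factor for each library, called normalised counts here. Libraries held between 11232461 and 38377674 reads, and the precision of low genes is limited by that depth. Replicate 1 of each 5-month group stood apart from the other 14 libraries: Xist, expressed from the inactive X chromosome, was at 12936 and 10883, against at most 226 elsewhere, and Y-linked genes summed to 0 and 1.91, against at least 1593 elsewhere. Both 226 and 1593 were from 9-month cornstarch liver replicate 3, while Xist was at most 25.8 in the rest. That library was also the lowest for 7 of the 10 class II genes. The part of its Xist signal in those values was not tested. The 5-month fructose livers also had neutrophil markers (Mpo, Elane and 5 others) summing to between 21088 and 23484, against 7.19 to 84.9 in 5-month cornstarch livers and at most 217 in any 9-month library. Counts of calls by diet in livers are therefore given with and without replicate 1 of each 5-month group, while fold changes are given with them. Hepatocyte markers (Alb, Apoa1 and 5 others) were abundant in every library and summed to between 1375430 and 4310970.

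Per length, B2m, H2-Q10, H2-K1 and H2-D1 were far above every class II gene, while many other class I genes were not. The normalised count per kilobase of exon, averaged over the 16 libraries, was 27063 for B2m, the light chain shared by class I molecules. It was 8708 for H2-Q10, a class I molecule that the mouse liver secretes, and 7358 and 4876 for the classical heavy chains H2-K1 and H2-D1. H2-T23, which encodes Qa-1, a ligand for receptors on NK cells, followed with 1579. Cd74 was the highest class II gene with 1181, and the chains H2-Eb1, H2-Ab1 and H2-Aa had 308, 288 and 224. H2-T22, H2-Q4, H2-Q8 and H2-Q7, with 604, 423, 386 and 356, lay between Cd74 and H2-Eb1. The other class I chains lay below H2-Aa, between 145 for H2-Q1 and 6.65 for H2-M2. The H2-DM chains H2-DMb1, H2-DMa and H2-DMb2 had 50.9, 30.6 and 7.61, Ciita had 5.09, and the H2-O chains H2-Oa and H2-Ob had 4.15 and 3.52.

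**Figure D1:**
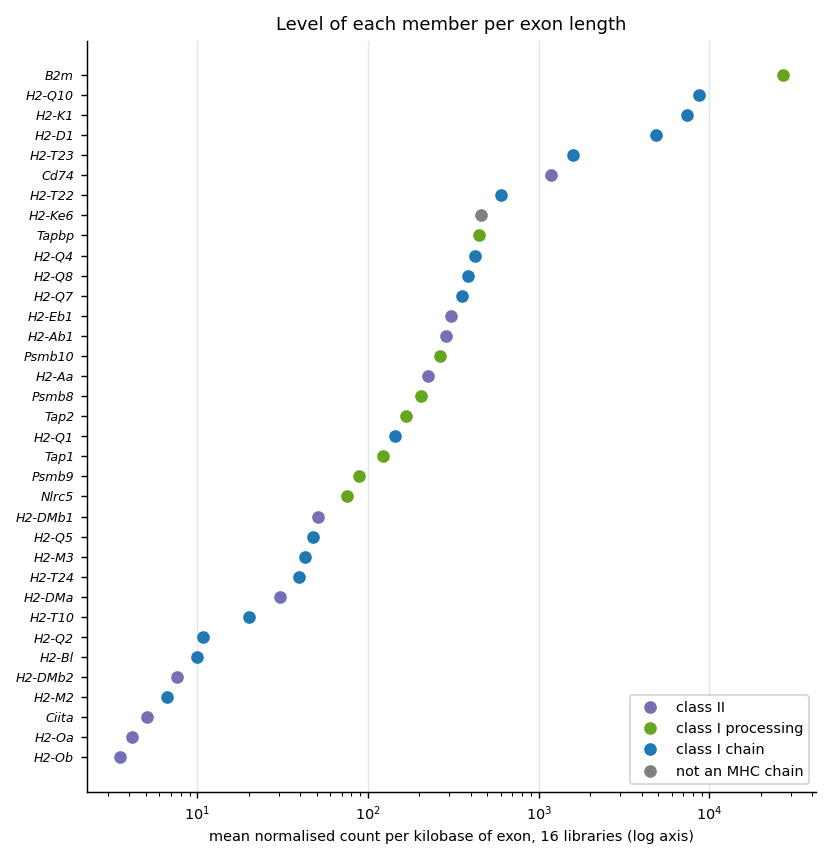
Level of each of the 35 members as the mean normalised count per kilobase of exon over 16 libraries, on a log axis, coloured by class. B2m is at the top with 27063 and H2-Ob at the bottom with 3.52.

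The members also differed in how much they varied. The ratio of the highest to the lowest of the 16 libraries ran between 1.45 (Psmb8) and 2.79 (Psmb9) in the genes of class I assembly and supply. It ran between 3.47 (H2-DMa) and 7.73 (Cd74) in class II genes. The medians of these classes were 2.01 and 6.59, and that of the class I chains 3.33. Class I chains spanned the widest range, with 1.70 for H2-K1, 1.72 for H2-D1, 6.81 for H2-Q10, 30.2 for H2-Q1 and 40.9 for H2-Q2. H2-M2, at 0 in a 5-month fructose liver and at 60.7 in a fructose tumour, has no such ratio and is not in the median of 3.33. Of the 10 class II genes, 6 had their highest library in fructose tumour replicate 2 and 7 their lowest in 9-month cornstarch liver replicate 3.

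By diet in 9-month livers, 4 of the 10 class II genes passed, all higher on fructose than on cornstarch. Cd74, H2-Aa, H2-Ab1 and H2-Eb1 rose between 2.29-fold and 2.47-fold, and the nonclassical class I gene H2-M3 rose 2.0-fold. No member fell. Of 34 members tested, 5 rose, 4 of them class II genes, while over all 14317 genes 2.54% were called and 2.32% were called higher (limma, adjusted p under 0.05). On the reads recovered from the table edgeR called 5 members and DESeq2 9, and 12 had an unadjusted p under 0.05 in limma, against 20.5% of all genes.

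Cd74 had normalised counts of 1958, 2684 and 2674 in 9-month fructose livers, against 1147, 1282 and 631 in 9-month cornstarch livers. The groups did not overlap, and the log2 fold change was 1.31 ± 0.25 (SE; limma, Benjamini-Hochberg adjusted p = 0.0304). H2-Aa, the α chain of I-A, had 791, 1091 and 1109 in 9-month fructose livers and 458, 535 and 324 in 9-month cornstarch livers. Its log2 fold change was 1.2 ± 0.20 with no overlap (limma, adjusted p = 0.0243). H2-Ab1, the β chain of I-A, had 675, 963 and 924 on fructose and 369, 464 and 263 on cornstarch. It again showed no overlap, with a log2 fold change of 1.24 ± 0.21 (limma, adjusted p = 0.0243). H2-Eb1, the β chain of I-E, had 569, 775 and 712 on fructose and 306, 352 and 211 on cornstarch. Its difference was 1.26 ± 0.20 on the log2 scale, again without overlap (limma, adjusted p = 0.0243). In bulk tissue, fewer cells of a type and less RNA per cell cannot be told apart.

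The regulator and the peptide exchanger pointed the same way without passing the threshold. Ciita had 43.7, 77.3 and 58.5 in 9-month fructose livers, against 32.8, 21.5 and 19.1 in 9-month cornstarch livers, a log2 fold change of 1.26 ± 0.31 (limma, adjusted p = 0.0631). H2-DMa had 119, 99.7 and 161 on fructose and 59.8, 76.8 and 46.5 on cornstarch, a log2 fold change of 1.04 ± 0.26 (limma, adjusted p = 0.0633). H2-DMb1 had 88.4, 87.3 and 102 on fructose and 55.9, 66.1 and 27.4 on cornstarch, a log2 fold change of 0.97 ± 0.28 (limma, adjusted p = 0.0992). None of these 3 genes overlapped between the diets, which made 7 of the 10 class II genes, against 12.9% of all genes tested. The other class II genes, all at low counts, overlapped: H2-DMb2 had 5.60 to 17.2 on fructose and 3.86 to 23 on cornstarch, and H2-Oa and H2-Ob had at most 32.3 in any of these libraries. The class II median log2 fold change was 1.12, against -0.018 over all genes, and 9 of 10 were positive.

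H2-M3 encodes a class I molecule that presents peptides starting with N-formylmethionine, as bacteria and mitochondria make them. It had 87.4, 63.8 and 78.4 in 9-month fructose livers, against 41.5, 35.3 and 35.7 in 9-month cornstarch livers. All 3 fructose livers were above all 3 cornstarch livers, with a log2 fold change of 1.0 ± 0.20 (limma, adjusted p = 0.0336). That call was lost in 12 of 22 alternatives, quantile normalisation, no filter and leaving out cornstarch liver replicate 2 among them. At 5 months H2-M3 had 62.7 and 60.5 on fructose and 42.0, 50.3 and 55.9 on cornstarch, again without overlap but short of the threshold (log2 fold change 0.32 ± 0.22; limma, adjusted p = 0.368). In tumours it had 69.6, 92.2 and 64.4 on fructose and 63.9 and 77.4 on cornstarch, which overlapped.

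The 5 calls at 9 months rested on few libraries: none was made without any of the 3 fructose livers, without cornstarch liver replicate 3 or with the 9-month livers fitted alone. Cornstarch liver replicate 3 is the library with Xist at 226. None was made without the 2 Xist-positive 5-month libraries, which enter only through the shared spread, and 3 were made without 5-month fructose liver replicate 1 or 2.

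**Figure D2:**
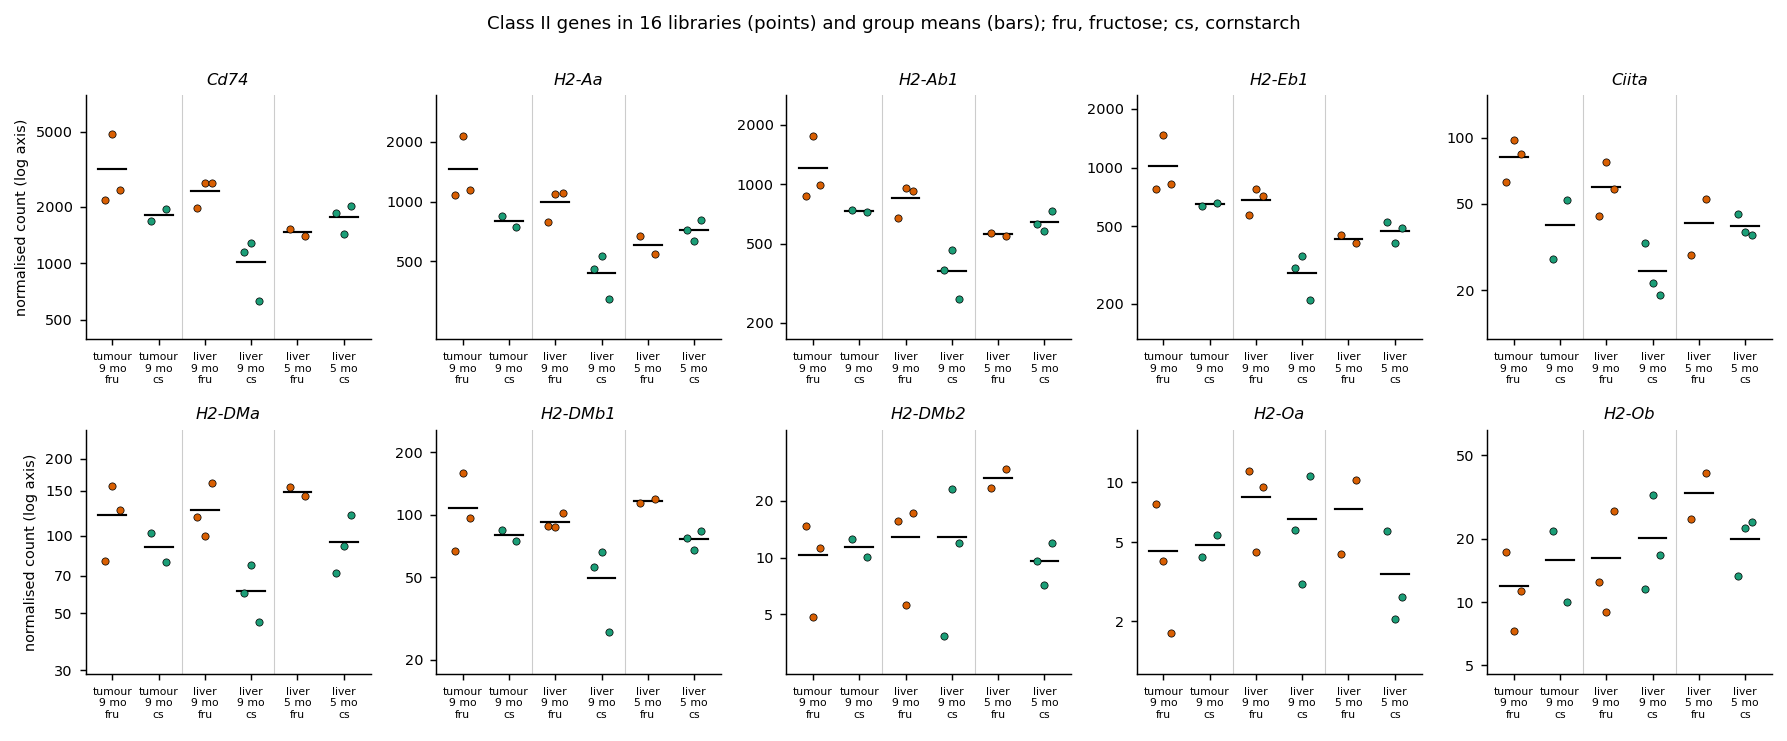
Normalised counts of the 10 class II genes (points, 16 libraries; log axes) in the 6 groups, with group means as bars. In 9-month livers on fructose, Cd74, H2-Aa, H2-Ab1, H2-Eb1, Ciita, H2-DMa and H2-DMb1 lie above every 9-month liver on cornstarch, and fructose tumour replicate 2 is the highest library for Cd74 at 4882.

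Of 10 Kupffer cell and macrophage markers, 6 rose on fructose in 9-month livers (Adgre1, Cd5l, Csf1r, C1qa, C1qb and C1qc), against 2.32% of all genes. All 10 summed to between 17207 and 24581 on fructose and between 3679 and 9821 on cornstarch. Csf1r, the macrophage growth factor receptor, had a log2 fold change of 1.87 ± 0.37 (limma, adjusted p = 0.0336). Of the 8 dendritic cell markers 7 were tested and none passed, with a median log2 fold change of 0.69. Their sums, between 312 and 693 on fructose and between 232 and 248 on cornstarch, did not overlap. Itgax contributed 383 in fructose liver replicate 1, against 33.6 and 73.0 in the other fructose livers and 28.6 to 35.3 in cornstarch livers at 9 months. B cell markers summed to between 113 and 187 on fructose and between 92.6 and 197 on cornstarch, and of 6 tested none passed. Plac8 among 4 monocyte markers and Mpo among 7 neutrophil markers rose, against the same 2.32% of all genes. Monocyte markers summed to between 359 and 545 on fructose and between 167 and 261 on cornstarch. Neutrophil markers summed to between 158 and 217 on fructose and between 34.5 and 67.6 on cornstarch. Neither sum overlapped, and these lists had median log2 fold changes of 0.98 and 2.16. None of 8 T and NK cell, 7 sinusoidal endothelium, 4 cholangiocyte or 7 hepatocyte markers passed. The endothelial and cholangiocyte lists had median log2 fold changes of 1.06 and 1.09 all the same, beside 1.12 for the class II genes. Endothelial markers summed to between 6461 and 9817 on fructose and between 2304 and 5540 on cornstarch, and cholangiocyte markers to between 85.3 and 167 on fructose and between 44.1 and 81.0 on cornstarch, neither with overlap. The part of these cells in the class II difference was not tested.

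**Figure D3:**
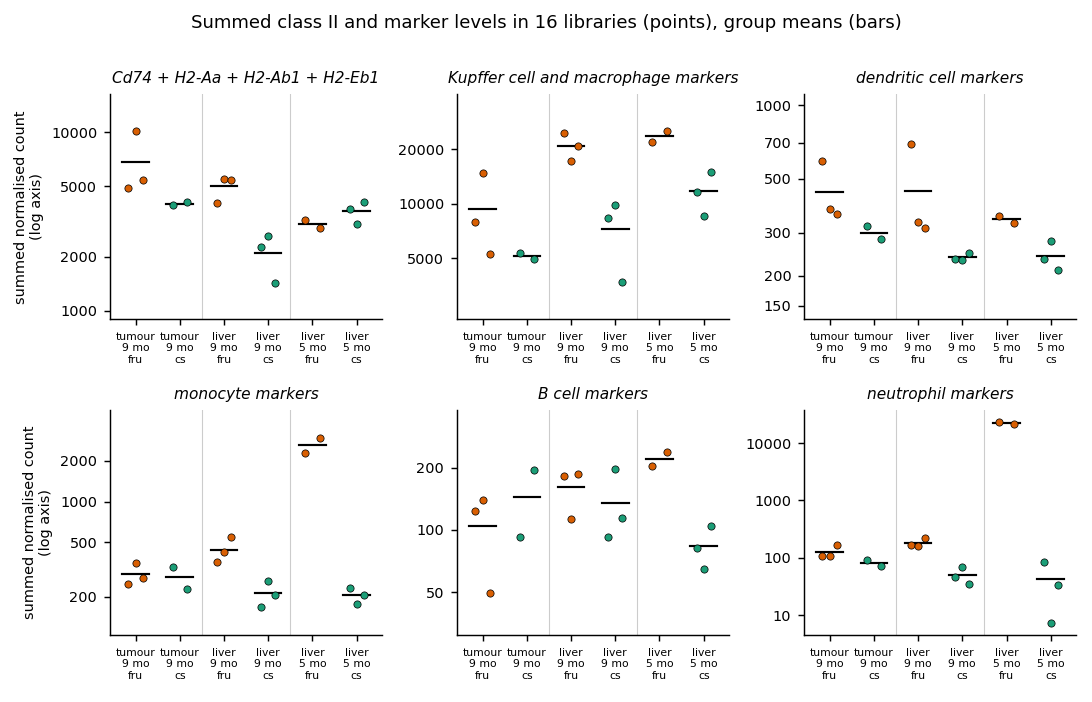
Summed normalised counts per library (points; log axes) of Cd74, H2-Aa, H2-Ab1 and H2-Eb1 and of 5 lists of cell type markers in the 6 groups, with group means as bars. Kupffer cell markers are higher on fructose in livers of both ages, while the class II sum is 3993 to 5513 on fructose and 1429 to 2632 on cornstarch in 9-month livers and lies between 2908 and 4057 in 5-month livers of both diets.

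At 5 months the class II genes did not show the pattern of the 9-month livers. Cd74 had 1518 and 1405 in 5-month fructose livers, against 1858, 1425 and 2024 in 5-month cornstarch livers. The groups overlapped, with a log2 fold change of -0.26 ± 0.28 (limma, adjusted p = 0.586). H2-Aa had 668 and 543 on fructose and 722, 630 and 804 on cornstarch, a log2 fold change of -0.25 ± 0.23 (limma, adjusted p = 0.514). H2-Ab1 had 567 and 551 on fructose and 627, 582 and 736 on cornstarch, so that both fructose livers were lowest (limma, adjusted p = 0.603). H2-Eb1 had 452 and 410 on fructose and 523, 410 and 493 on cornstarch (limma, adjusted p = 0.732). Ciita had 29.2 and 52.5 on fructose and 44.9, 37.0 and 36.0 on cornstarch, and its groups overlapped.

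The H2-DM chains behaved otherwise at 5 months. H2-DMa had 155 and 143 in 5-month fructose livers, against 71.6, 91.4 and 121 in 5-month cornstarch livers (log2 fold change 0.68 ± 0.29; limma, adjusted p = 0.146). H2-DMb1 had 114 and 119 on fructose and 77.3, 67.8 and 83.9 on cornstarch (log2 fold change 0.61 ± 0.32; limma, adjusted p = 0.233). H2-DMb2 had 23.3 and 29.7 on fructose and 9.54, 7.19 and 12.0 on cornstarch (log2 fold change 1.40 ± 0.65; limma, adjusted p = 0.181). All 3 were without overlap and short of the threshold. H2-Ob, at 24.8 and 41.1 on fructose and 13.4, 22.6 and 24 on cornstarch, did not overlap either. In all, 9 members were higher and 8 lower on fructose without overlap, against 27.1% and 24.7% of all genes.

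Of the 34 members tested at 5 months none rose and 2 fell, against 14.8% of all genes called, 10.3% higher and 4.48% lower (limma, adjusted p under 0.05). DESeq2 called 5 members, and 8 had an unadjusted p under 0.05 in limma, against 29.7% of all genes. No class II gene passed, 1 of 10 had an unadjusted p under 0.05, and the class II median log2 fold change was 0.31. It was 0.52 without fructose liver replicate 1, 0.14 without fructose liver replicate 2, 0.48 without both Xist-positive libraries, 0.03 with quantile normalisation, 0.00 with the 5-month livers fitted alone and -0.13 with a filter at 50. The filter at 50 leaves out the low genes H2-DMb2, H2-Oa and H2-Ob. Kupffer cell and macrophage markers summed to between 21954 and 25226 in 5-month fructose livers and between 8608 and 14945 in 5-month cornstarch livers, with 3 of 10 higher (C1qa, C1qb and C1qc). All 4 monocyte markers rose, summing to between 2294 and 2947 on fructose and between 176 and 233 on cornstarch, and so did all 7 neutrophil markers, Flt3 among 7 dendritic cell markers, Nkg7 among 8 T and NK cell markers and Lyve1 among 7 endothelial markers. Of 6 B cell markers tested 2 rose, against 10.3% of all genes. The B cell markers summed to between 204 and 238 on fructose and between 64.7 and 104 on cornstarch, without overlap. The part of all these cell types in the values of the members was not tested. The summed level of Cd74, H2-Aa, H2-Ab1 and H2-Eb1 was between 2908 and 3206 on fructose and between 3047 and 4057 on cornstarch. Relative to the summed Kupffer cell markers of the same library, it was 0.115 to 0.146 on fructose and 0.271 to 0.354 on cornstarch at 5 months, and 0.162 to 0.320 on fructose and 0.268 to 0.388 on cornstarch at 9 months.

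By p-value, the diet differences of the ages diverged most for H2-Eb1, H2-Aa, H2-Ab1 and Cd74, short of the threshold, while H2-Q2 had a larger difference with a larger error (-1.74 ± 0.98; limma, adjusted p = 0.555). The diet difference at 9 months minus that at 5 months was 1.44 ± 0.31 on the log2 scale for H2-Aa (limma, adjusted p = 0.0712). It was 1.45 ± 0.31 for H2-Ab1 (limma, adjusted p = 0.0727), 1.40 ± 0.29 for H2-Eb1 (limma, adjusted p = 0.0712) and 1.57 ± 0.38 for Cd74 (limma, adjusted p = 0.11). No member passed in limma, while 8 of 34 had an unadjusted p under 0.05, against 11.5% of all genes, and 0.698% of all genes were called, 0.00698% higher and 0.691% lower. On the reads recovered from the table, DESeq2 called 4 members and edgeR 0.

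By age, averaged over the diets, limma called 0 of 34, against 2.77% of all genes, of which 0.768% higher and 2% lower. There were 4 unadjusted p-values under 0.05, against 22.2% of all genes, with 1 call by DESeq2 and 0 by edgeR. No member separated the ages without overlap, against 0.636% of all genes higher and 0.964% lower. That average joined opposite directions within the diets. Under fructose, Cd74, H2-Aa, H2-Ab1 and H2-Eb1 were higher in all 3 livers at 9 months than in both livers at 5 months, by 0.72, 0.71, 0.59 and 0.66 on the log2 scale. Under cornstarch, the same 4 genes, Ciita and H2-DMb1 were lower in all 3 livers at 9 months than in all 3 at 5 months. The log2 fold changes there were -0.84 for Cd74, -0.73 for H2-Aa, -0.86 for H2-Ab1 and -0.74 for H2-Eb1. No member passed within a diet (limma, smallest adjusted p 0.0951 under fructose and 0.214 under cornstarch, with 7 and 9 unadjusted p-values under 0.05), where 0.664% of all genes were called higher and 2.81% lower under fructose and 0% either way under cornstarch. Under fructose 11 members were higher and 4 lower at 9 months without overlap, against 17.5% and 22.3% of all genes. Under cornstarch 5 were higher and 7 lower, against 9.18% and 8.98%.

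Over both ages together, fructose livers had 6 members higher and 4 lower than cornstarch livers, against 13.8% of all genes higher and 7.61% lower (21.4% called; limma, adjusted p under 0.05). Besides H2-Aa, H2-Ab1, H2-Eb1 and H2-M3, whose values at each age are given above, H2-DMa and H2-DMb1 rose. For H2-Aa, H2-Ab1 and H2-Eb1 that average joined opposite signs, positive in 9-month livers and negative in 5-month livers. H2-DMa had a log2 fold change of 0.86 ± 0.19 (limma, adjusted p = 0.0116) and H2-DMb1 of 0.79 ± 0.21 (limma, adjusted p = 0.0242). The 4 that fell were H2-Q5, H2-Q7, H2-Q8 and H2-Ke6. Over both ages H2-M3 and H2-DMb1 were higher and H2-Q7 lower without overlap, against 6.09% and 2.58% of all genes, and 16 of 34 members had an unadjusted p under 0.05 (limma), against 35.9%. The call of H2-Aa was lost in 13 and that of H2-Ab1 in 9 of 22 alternatives. Those of H2-DMa, H2-DMb1, H2-Eb1 and H2-M3 were lost in 1, 6, 4 and 2 of 22. For each of the 6 members that rose, the fit without the Xist-positive libraries was among these. H2-Q7 and H2-Q8, which fell, kept their calls in that fit. Without the Xist-positive libraries 2 members were called, without 5-month fructose liver replicate 1 or 2 there were 4 and 2, without 9-month fructose liver replicate 3 there were 6, and without 5-month cornstarch liver replicate 2 there were 5.

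In tumours the main class II genes were higher on fructose in every library, short of the threshold. Cd74 had 2168, 4882 and 2455 in fructose tumours, against 1676 and 1936 in cornstarch tumours. H2-Aa had 1076, 2138 and 1141 in fructose tumours and 842 and 748 in cornstarch tumours. All fructose tumours lay above both cornstarch tumours for these genes, and replicate 2 stood well above the others. H2-Ab1 had 873, 1760 and 995 in fructose tumours and 743 and 725 in cornstarch tumours. H2-Eb1 had 781, 1464 and 819 in fructose tumours and 636 and 658 in cornstarch tumours. Ciita had 62.6, 97.9 and 84.4 in fructose tumours and 27.8 and 51.9 in cornstarch tumours. These too were without overlap, but limma called no member by diet in tumours, nor any of all 14503 genes (0%).

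The log2 fold changes by diet in tumours were 0.72 ± 0.37 for Cd74 (limma, adjusted p = 0.65), 0.80 ± 0.31 for H2-Aa (limma, adjusted p = 0.565) and 1.06 ± 0.37 for Ciita (limma, adjusted p = 0.527). The class II median was 0.48, against -0.026 over all genes, and 0.25 without fructose tumour replicate 2. In limma 5 of 35 members had an unadjusted p under 0.05 (H2-Aa, Ciita, H2-Q2, H2-Q8 and H2-Ke6), against 8.12% of all genes. Neither edgeR nor DESeq2 called a member. Without overlap, 6 members were higher and 7 lower in fructose tumours, against 10.9% and 12.5% of all genes. The diet difference in tumours minus that in 9-month livers was negative for all 10 class II genes, with a median of -0.59 against -0.030 over all genes. That median was -0.28 without cornstarch liver replicate 3 and -0.38 without fructose tumour replicate 1. No member passed that test in limma, edgeR or DESeq2, and H2-M3 and H2-Q2 had an unadjusted p under 0.05 in limma, 2 of 35 against 2.92% of all genes.

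Tumours against 9-month livers, averaged over the diets, had 9 members higher and 1 lower of 35, against 13.4% and 10.5% of all genes (23.8% called; limma, adjusted p under 0.05). The class II chains H2-Aa, H2-Ab1 and H2-Eb1 rose, with log2 fold changes of 0.68 ± 0.21, 0.75 ± 0.21 and 0.86 ± 0.20 (limma, adjusted p = 0.0371, 0.0278 and 0.0115). Cd74 had a log2 fold change of 0.59 ± 0.25 (limma, adjusted p = 0.112). The class I chains H2-M2, H2-Q2, H2-Q4, H2-Q8, H2-T22 and H2-T23 rose, and H2-Ke6 fell. H2-M2 reached the level of 10 required of members only in tumours, so these counts include it through the group where it is high. Without overlap, H2-M2 and H2-T22 were higher and no member lower, against 7.96% and 5.02% of all genes, and 17 of 35 had an unadjusted p under 0.05 (limma), against 37.5%. Without cornstarch tumour replicate 2 no member was called, and without cornstarch tumour replicate 1 or fructose liver replicate 1 or 2 the count was 5, 5 and 6.

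Split by diet, H2-Eb1 passed between tumour and liver under cornstarch, where 4.82% of all genes were called higher. It rose, with 636 and 658 in tumours and 306, 352 and 211 in livers (log2 fold change 1.19 ± 0.29; limma, adjusted p = 0.0435). H2-Ab1 had a log2 fold change of 1.04 ± 0.31 (limma, adjusted p = 0.0791), and 6 of 10 class II genes did not overlap, against 21.8% of all genes. Under fructose no class II gene passed: H2-Eb1 had a log2 fold change of 0.52 ± 0.26 (limma, adjusted p = 0.229) and was the only class II gene without overlap, while 5.75% of all genes were called higher. The difference between these splits is the test by diet given above, which no member passed.

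Of 10 Kupffer cell and macrophage markers 3 fell in tumours and none rose, against 10.5% and 13.4% of all genes. Clec4f, Timd4 and Marco, markers of resident Kupffer cells, fell, and the 10 markers summed to between 5305 and 14784 in fructose tumours, 4957 and 5313 in cornstarch tumours, 17207 and 24581 in fructose livers and 3679 and 9821 in cornstarch livers. The summed level of Cd74, H2-Aa, H2-Ab1 and H2-Eb1 relative to those markers was 0.617 to 1.02 in fructose tumours, 0.733 to 0.820 in cornstarch tumours, 0.162 to 0.320 in fructose livers and 0.268 to 0.388 in cornstarch livers. All 5 tumours were above all 6 livers in this ratio, which carries no test. Under fructose the class II sum overlapped, with 4899 to 10243 in tumours and 3993 to 5513 in livers, while the marker sum did not. Under cornstarch the class II sum did not overlap, with 3897 to 4067 in tumours and 1429 to 2632 in livers, while the marker sum did. Dendritic cell markers summed to between 358 and 589 in fructose tumours and 281 and 319 in cornstarch tumours, and none of 7 tested passed against liver. Relative to these markers, the class II sum was 8.32 to 27.3 in fructose tumours and 5.76 to 17.4 in fructose livers, which overlapped. It was 12.2 to 14.4 in cornstarch tumours and 5.77 to 11.3 in cornstarch livers, without overlap. This ratio carries no test either. The part of these cells in the tumour values was not tested.

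The accessory class II genes did not pass between tumours and livers. H2-DMa had 80.0, 156 and 126 in fructose tumours and 103 and 79.3 in cornstarch tumours (log2 fold change of tumour over liver 0.25 ± 0.22; limma, adjusted p = 0.459). H2-DMb1 had 66.9, 159 and 96.6 in fructose tumours and 84.1 and 74.7 in cornstarch tumours (log2 fold change 0.44 ± 0.27; limma, adjusted p = 0.267). Both overlapped between diets and with the livers of both diets together. Under cornstarch alone both tumours were above all 3 livers for both genes (log2 fold change 0.59 ± 0.33 and 0.75 ± 0.41; limma, adjusted p = 0.323 and 0.3).

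The remaining class II genes were near the limit of detection at this depth. H2-DMb2, a second DM β chain, had 14.8, 4.85 and 11.3 in fructose tumours, 12.6 and 10.0 in cornstarch tumours, 15.6, 5.60 and 17.2 in 9-month fructose livers and 3.86, 23 and 11.9 in 9-month cornstarch livers. H2-Oa had 7.83, 4.05 and 1.74 in fructose tumours, 4.21 and 5.47 in cornstarch tumours, 11.4, 4.48 and 9.52 in 9-month fructose livers, 5.79, 3.07 and 10.7 in 9-month cornstarch livers, 4.38 and 10.3 in 5-month fructose livers and 5.73, 2.05 and 2.66 in 5-month cornstarch livers. H2-Ob had 17.4, 7.28 and 11.3 in fructose tumours, 21.9 and 10.0 in cornstarch tumours, 12.5, 8.96 and 27.2 in 9-month fructose livers and 11.6, 32.3 and 16.7 in 9-month cornstarch livers. Their groups overlapped at 9 months in liver and in tumours.

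The 4 main class II genes stayed in narrow proportions to each other. The ratio of Cd74 to H2-Ab1 in normalised counts lay between 2.26 and 3.10 over the 16 libraries, that of H2-Aa to H2-Ab1 between 0.985 and 1.24, and that of H2-Eb1 to H2-Ab1 between 0.669 and 0.907. H2-DMa did not keep step with them. Its ratio to H2-Aa was 0.231 and 0.263 in the 5-month fructose livers, against 0.0992 to 0.151 in 5-month cornstarch livers, and at most 0.150 in any 9-month library. Such ratios compare libraries within a pair of genes and do not depend on the scaling between libraries.

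The abundant class I chains did not pass by diet. H2-K1 had 18908, 20338 and 23620 in 9-month fructose livers, against 23448, 24199 and 21422 in 9-month cornstarch livers. H2-D1 had 12838, 10405 and 13460 on fructose and 10250, 10635 and 10896 on cornstarch at 9 months. Both overlapped, with log2 fold changes of -0.14 ± 0.17 and 0.20 ± 0.15 (limma, adjusted p = 0.675 and 0.487). At 5 months H2-K1 had 21124 and 17432 on fructose and 23742, 21144 and 24243 on cornstarch. H2-D1 had 14478 and 13010 on fructose and 11684, 9902 and 10593 on cornstarch at 5 months. H2-K1 was thus lowest and H2-D1 highest on fructose, without overlap and short of the threshold (limma, adjusted p = 0.392 and 0.175).

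Within a library, the ratio of H2-K1 to H2-D1 separated the diets in liver. It lay between 1.34 and 1.46 in 5-month fructose livers and between 2.03 and 2.29 in 5-month cornstarch livers. At 9 months it lay between 1.47 and 1.95 on fructose and between 1.97 and 2.29 on cornstarch, so that the groups at 9 months just failed to overlap. In tumours it lay between 1.21 and 1.59 on fructose and between 1.46 and 1.55 on cornstarch, below every cornstarch liver. This ratio was chosen with the values known and carries no test.

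Among the H2-Q genes, which encode Qa-2 and related class I molecules, H2-Q5, H2-Q7 and H2-Q8 fell on fructose over both ages. H2-Q5, annotated as a polymorphic pseudogene, had 36.5 and 36.6 in 5-month fructose livers and 68.7, 58.5 and 69.2 in 5-month cornstarch livers. It fell by 0.82 ± 0.22 on the log2 scale (limma, adjusted p = 0.0315). H2-Q8 had 496 and 374 in 5-month fructose livers and 815, 642 and 703 in 5-month cornstarch livers, and fell by 0.73 ± 0.20 (limma, adjusted p = 0.0324). Neither overlapped. H2-Q5 was not called without any of the 5 libraries compared, and H2-Q8 was called only where fructose liver replicate 1 was the one left out. Neither was called without both Xist-positive libraries. At 9 months H2-Q5 had 51.0, 72.8 and 65.3 on fructose and 77.1, 70.7 and 92.9 on cornstarch, and both genes overlapped (limma, adjusted p = 0.35 for H2-Q5 and 0.515 for H2-Q8).

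H2-Q7, a source of Qa-2, was lower on fructose at both ages. It had 792, 1095 and 1152 in 9-month fructose livers, against 1656, 1518 and 1350 in 9-month cornstarch livers. It had 1101 and 1001 in 5-month fructose livers, against 1513, 1345 and 1700 in 5-month cornstarch livers. No fructose liver reached any cornstarch liver, and over both ages H2-Q7 fell by 0.56 ± 0.12 on the log2 scale (limma, adjusted p = 0.00901). At 9 months alone the adjusted p was 0.0821 and at 5 months 0.0738 (limma). The call over both ages was lost with all 16 libraries in the fit and without 5-month fructose liver replicate 2.

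H2-Q10 had 12973, 28558 and 36991 in 9-month fructose livers, against 46520, 36474 and 41063 in 9-month cornstarch livers. The groups overlapped by a narrow margin, with replicate 1 the lowest of all 16 libraries, and the log2 fold change was -0.78 ± 0.33 (limma, adjusted p = 0.22). At 5 months it had 30209 and 35272 on fructose and 31892, 30238 and 36385 on cornstarch, a log2 fold change of 0.00 ± 0.37. In fructose tumours it had 29250, 48285 and 29304, against 43957 and 88395 in cornstarch tumours, of which the last was the highest value of any member in any library. Apart from H2-M3 at 9 months and H2-Q5 and H2-Q8 at 5 months, no class I chain passed by diet in livers of a single age, and the class I chain median log2 fold change was -0.067 at 9 months and -0.042 at 5 months.

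**Figure D4:**
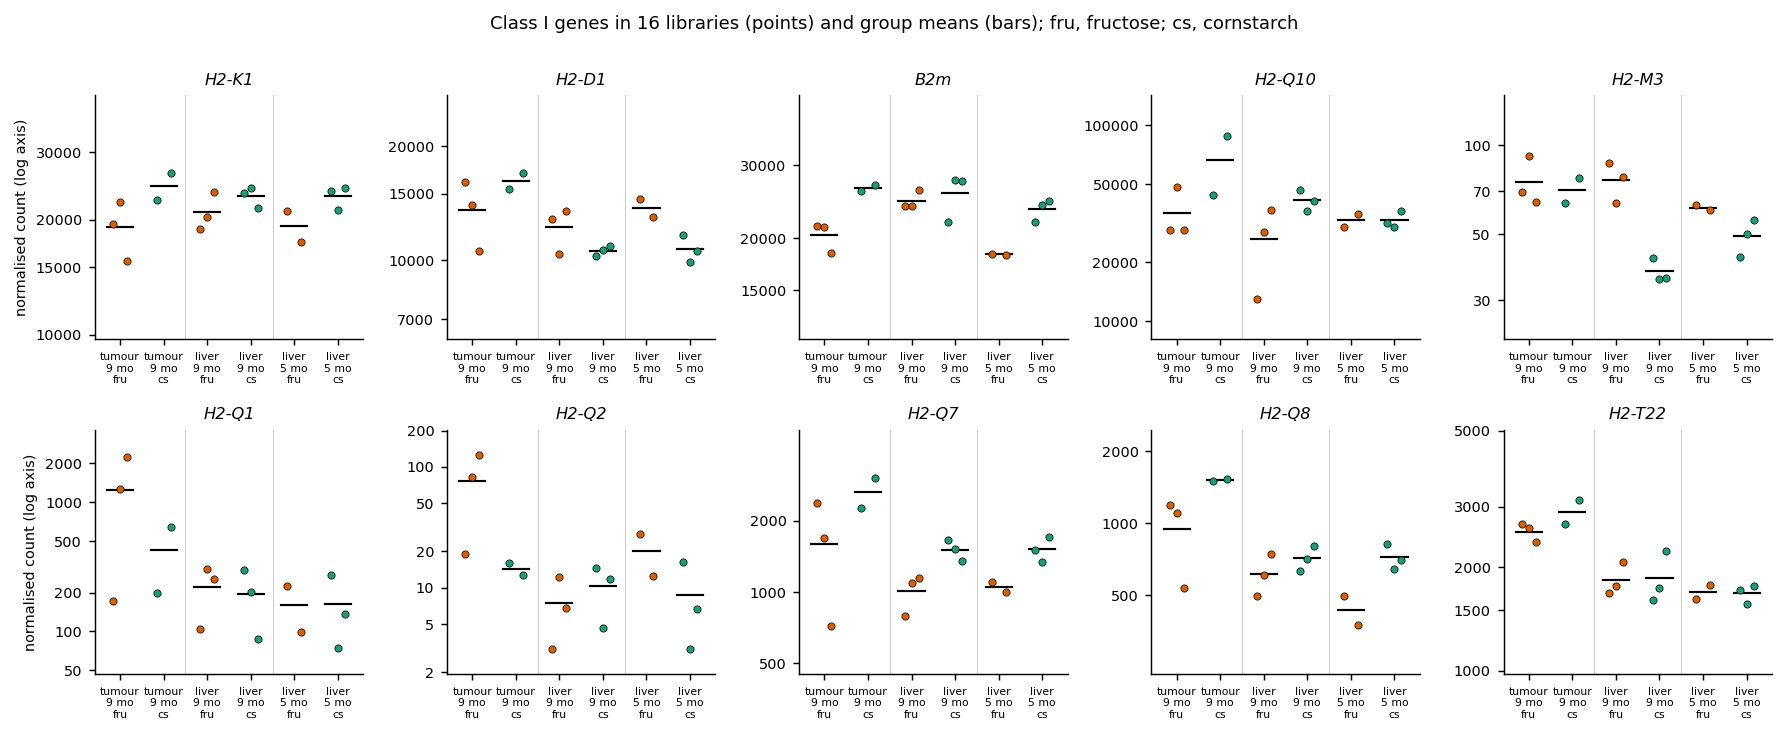
Normalised counts of 9 class I chains and B2m (points, 16 libraries; log axes) in the 6 groups, with group means as bars. H2-M3 is above every 9-month cornstarch liver in all 9-month fructose livers, H2-Q7 is lower on fructose in livers of both ages, and H2-Q1 and H2-Q2 are highest in fructose tumour replicates 2 and 3.

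In tumours 6 of 16 class I chains rose, against 13.4% of all genes: H2-M2, H2-Q2, H2-Q4, H2-Q8, H2-T22 and H2-T23. Of these, H2-M2 met the level required of members only through the tumours. H2-Q4, H2-Q8, H2-T22 and H2-T23 passed over both diets together but not within either diet. H2-T22, a ligand for γδ T cells, had 2667, 2596 and 2364 in fructose tumours, 2673 and 3139 in cornstarch tumours, 1685, 1766 and 2075 in fructose livers and 1611, 1739 and 2227 in cornstarch livers. Every tumour was above every liver, and the log2 fold change was 0.56 ± 0.12 (limma, adjusted p = 0.0081). H2-T23 had 5651, 4441 and 5189 in fructose tumours, 5791 and 6676 in cornstarch tumours, 3887, 3545 and 4531 in fructose livers and 3636, 4273 and 4620 in cornstarch livers. It rose by 0.47 ± 0.13 on the log2 scale, with fructose tumour replicate 2 inside the range of the livers (limma, adjusted p = 0.0231). H2-Q8 had 1196, 1101 and 536 in fructose tumours, 1496 and 1533 in cornstarch tumours, 497, 608 and 740 in fructose livers and 629, 707 and 804 in cornstarch livers. It rose by 0.82 ± 0.21 although fructose tumour replicate 3 lay among the livers (limma, adjusted p = 0.0176). H2-Q4 had 1193, 1222 and 1198 in fructose tumours, 1582 and 1509 in cornstarch tumours, 897, 1041 and 1155 in fructose livers and 877, 1156 and 1211 in cornstarch livers. It rose by 0.38 ± 0.11 (limma, adjusted p = 0.0359), a call lost in 12 of 23 alternatives, upper-quartile scaling, no filter and leaving out any of the 5 tumours among them.

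H2-Q2, a little-studied chain of the Q region, was highest in fructose tumour replicates 2 and 3. It had 19.1, 82.5 and 126 in fructose tumours, 16.0 and 12.8 in cornstarch tumours, 3.12, 12.3 and 6.80 in fructose livers and 14.5, 4.61 and 11.9 in cornstarch livers. Its log2 fold change of tumour over liver was 1.77 ± 0.53 (limma, adjusted p = 0.0337), and 2.99 ± 0.70 under fructose (limma, adjusted p = 0.0246) against 0.56 ± 0.78 under cornstarch (limma, adjusted p = 0.722). The call over both diets was lost when any of 7 of the 11 libraries was left out. Its neighbour H2-Q1 had 172, 1273 and 2262 in fructose tumours, 199 and 649 in cornstarch tumours, 105, 305 and 253 in fructose livers and 301, 201 and 87.0 in cornstarch livers. The same fructose tumours were high for H2-Q1, whose log2 fold change was 1.51 ± 0.66 (limma, adjusted p = 0.123). H2-M2 had 15.7, 60.7 and 12.2 in fructose tumours, 11.8 and 15.5 in cornstarch tumours, 8.32, 4.48 and 4.99 in fructose livers and 5.79, 7.68 and 2.38 in cornstarch livers. At these low counts all tumours were above all livers (log2 fold change 1.57 ± 0.46; limma, adjusted p = 0.0322). H2-M2 reached the level of 10 required of members only in the 5 tumours. Its place among the members thus came from the group where it is high, and its rise there carries no weight of its own.

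The classical chains and the rest of the class I chains did not pass. H2-K1 had 19500, 22232 and 15552 in fructose tumours and 22540 and 26437 in cornstarch tumours, a log2 fold change of tumour over liver of -0.03 ± 0.17 (limma, adjusted p = 0.922). H2-D1 had 16129, 13951 and 10550 in fructose tumours and 15398 and 17004 in cornstarch tumours, a log2 fold change of 0.37 ± 0.16 (limma, adjusted p = 0.108). By diet in tumours, H2-K1, H2-Q4, H2-Q8, H2-T22 and H2-T23 were lower in all 3 fructose tumours than in both cornstarch tumours, with log2 fold changes between -0.77 and -0.19, while 12.5% of all genes were lower without overlap. H2-T10, H2-T24 and the pseudogene H2-Bl, whose highest counts were 110, 126 and 43.9, passed in no comparison.

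None of the 8 genes of class I assembly and peptide supply passed in any of the 8 comparisons. B2m had 23991, 23893 and 26111 in 9-month fructose livers and 21855, 27657 and 27544 in 9-month cornstarch livers. At 5 months it had 18354 and 18266 on fructose and 21955, 24146 and 24603 on cornstarch, without overlap and short of the threshold (log2 fold change -0.36 ± 0.18; limma, adjusted p = 0.22). In fructose tumours it had 21381, 21284 and 18472 and in cornstarch tumours 25985 and 26888, again without overlap (log2 fold change -0.38 ± 0.24; limma, adjusted p = 0.71).

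Tap1 and Tap2 are the subunits of the TAP transporter, and Tapbp holds class I to it. Tap2 had 649 and 739 in 5-month fructose livers and 555, 482 and 510 in 5-month cornstarch livers (log2 fold change 0.43 ± 0.13; limma, adjusted p = 0.0515). Tapbp had 1912 and 1967 on fructose and 1669, 1148 and 1471 on cornstarch (log2 fold change 0.46 ± 0.16; limma, adjusted p = 0.088). Both were without overlap at 5 months, short of the threshold. Tap1 had 413 and 625 on fructose and 483, 428 and 575 on cornstarch at 5 months, which overlapped.

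At 9 months all 3 overlapped by diet in livers. Tap2 had 544, 655 and 613 in 9-month fructose livers and 566, 624 and 582 in 9-month cornstarch livers. Tapbp had 1431, 1759 and 1795 on fructose and 1482, 1466 and 1510 on cornstarch at 9 months. Tap1 had 457, 685 and 853 in 9-month fructose livers and 561, 910 and 536 in 9-month cornstarch livers, a log2 fold change of -0.01 ± 0.27. In tumours Tap1 had 723, 1099 and 661 on fructose and 817 and 897 on cornstarch, and Tap2 603, 802 and 695 on fructose and 771 and 762 on cornstarch, both overlapping. Tapbp overlapped too, with 1143, 1658 and 2492 in fructose tumours and 1494 and 1600 in cornstarch tumours.

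The immunoproteasome subunits Psmb8, Psmb9 and Psmb10, which interferon γ induces, had log2 fold changes by diet at 9 months of 0.01 ± 0.16, -0.20 ± 0.21 and 0.06 ± 0.17. Psmb9 had 229, 347 and 431 on fructose and 340, 410 and 373 on cornstarch at 9 months, and 271 and 336 on fructose and 194, 241 and 224 on cornstarch at 5 months. The groups overlapped at 9 months and not at 5 months (log2 fold change 0.46 ± 0.24 at 5 months; limma, adjusted p = 0.227). Psmb8 had 579, 831 and 826 in fructose tumours, 757 and 608 in cornstarch tumours, 623, 637 and 774 in 9-month fructose livers, 572, 824 and 637 in 9-month cornstarch livers, 674 and 790 in 5-month fructose livers and 684, 578 and 635 in 5-month cornstarch livers, so that no group stood apart. Psmb10 had 296, 402 and 571 in fructose tumours, 473 and 335 in cornstarch tumours, 461, 484 and 445 in 9-month fructose livers, 366, 420 and 571 in 9-month cornstarch livers, 458 and 437 in 5-month fructose livers and 563, 412 and 519 in 5-month cornstarch livers. Its diets overlapped in each tissue and age. Psmb9 had 209, 540 and 318 in fructose tumours and 419 and 315 in cornstarch tumours, which overlapped.

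Nlrc5 had 464, 573 and 548 in 9-month fructose livers and 577, 685 and 812 in 9-month cornstarch livers, so that every fructose liver was lower (log2 fold change -0.38 ± 0.15; limma, adjusted p = 0.2). It had 545 and 656 on fructose and 539, 481 and 578 on cornstarch at 5 months, and 974, 831 and 556 on fructose and 663 and 810 on cornstarch in tumours. Both of those comparisons overlapped. Ciita and Nlrc5, the paired coactivators, thus stood on opposite sides of 0 in that comparison, neither past the threshold.

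H2-Ke6, the dehydrogenase, fell in tumours. It had 485, 371 and 581 in fructose tumours, 772 and 664 in cornstarch tumours, 828, 709 and 760 in 9-month fructose livers and 896, 894 and 1251 in 9-month cornstarch livers. It fell by 0.59 ± 0.14 in tumours against livers on the log2 scale (limma, adjusted p = 0.0155). Over both ages it fell by 0.37 ± 0.11 on fructose in liver (limma, adjusted p = 0.03), with 674 and 668 on fructose and 814, 886 and 874 on cornstarch at 5 months.

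**Figure D5:**
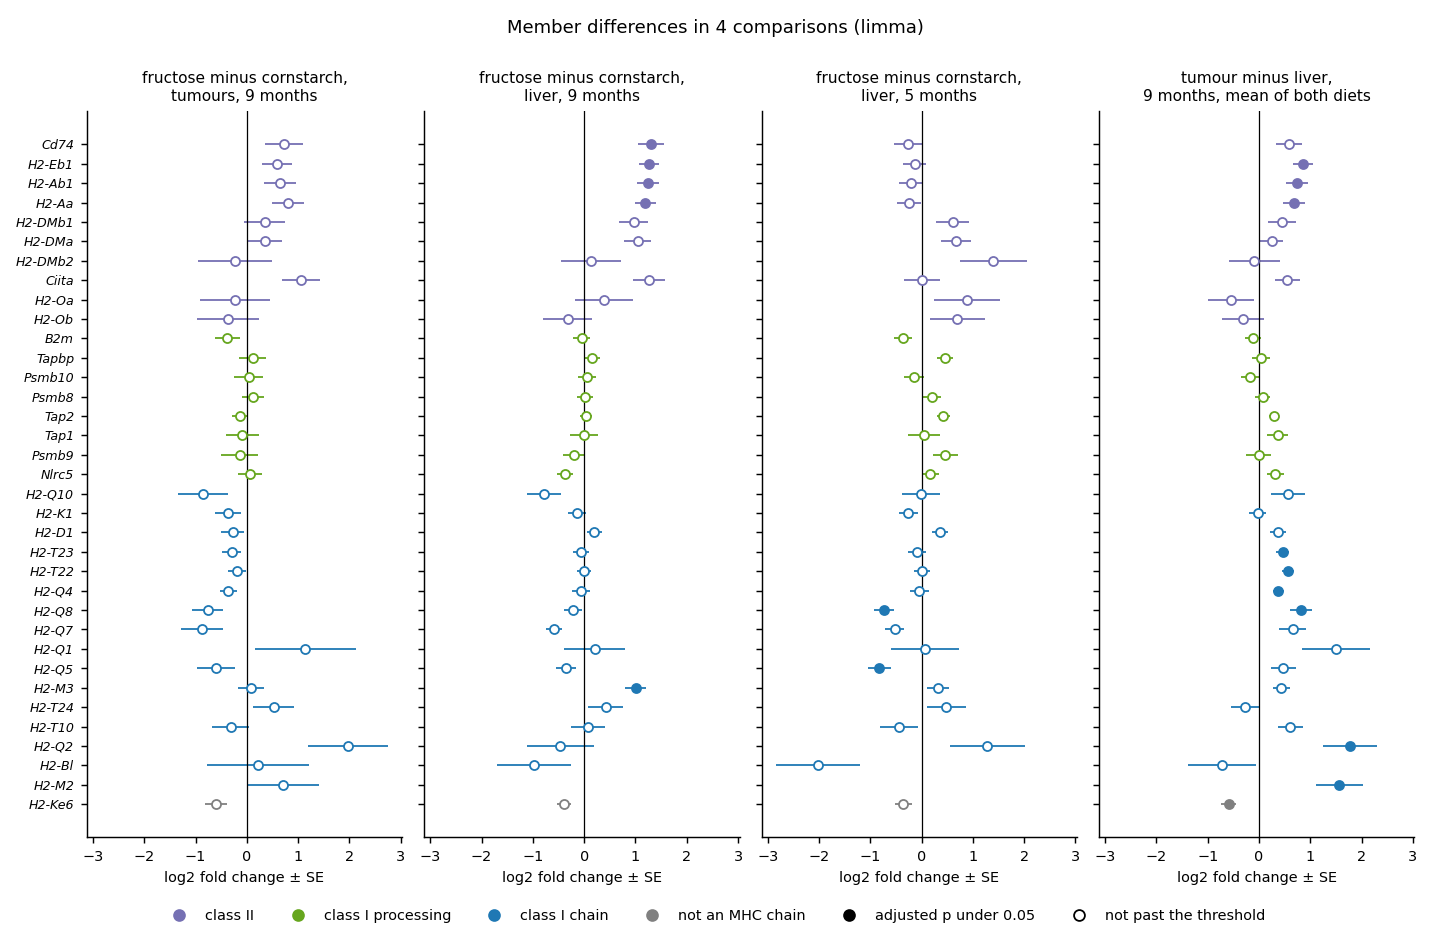
Log2 fold change ± SE of the 35 members in 4 comparisons (limma), coloured by class, with filled points past an adjusted p of 0.05. By diet in 9-month livers 6 of 10 class II genes lie above 1, while in 5-month livers Cd74, H2-Aa, H2-Ab1 and H2-Eb1 lie below 0, and genes of class I assembly and supply lie between -0.38 and 0.46 in all 4 panels.

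Of 11 genes that prepare peptides for class II or move class II in the cell, 6 rose and none fell on fructose at 5 months (Ctsb, Lgmn, Ifi30, March1, Cd9 and Cd37), against 10.3% and 4.48% of all genes. At 9 months 3 rose (Lgmn, Ifi30 and March1) and none fell, against 2.32% and 0.217%. Ctsh and March8 had log2 fold changes below 0 at both ages, short of the threshold. Lgmn, an endosomal protease, had 2593 and 3370 in 5-month fructose livers and 1376, 1088 and 1364 in 5-month cornstarch livers (log2 fold change 1.22 ± 0.22; limma, adjusted p = 0.0055). At 9 months it had 2479, 2142 and 2588 on fructose and 1015, 1172 and 685 on cornstarch (log2 fold change 1.36 ± 0.20; limma, adjusted p = 0.0243). March1, a ubiquitin ligase that sends class II from the surface to degradation, had 248 and 310 on fructose and 98.3, 70.9 and 87.9 on cornstarch at 5 months, and 206, 138 and 137 on fructose and 58.8, 67.6 and 26.2 on cornstarch at 9 months. Its log2 fold changes were 1.69 ± 0.36 and 1.72 ± 0.33 (limma, adjusted p = 0.0122 and 0.0299). The list's median was 1.19 at 5 months and 0.78 at 9 months, against -0.011 and -0.018 over all genes.

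Of 17 tested factors that bind MHC promoters or carry the interferon γ signal, 3 rose at 5 months (Nfya, Irf8 and Ifngr1), against 10.3% of all genes, 2 rose at 9 months (Irf8 and Ifngr1), against 2.32%, and none fell. The share at 5 months was near that of all genes. Irf8, a factor of macrophages and dendritic cells, had 217, 239 and 222 in 9-month fructose livers and 116, 115 and 104 in 9-month cornstarch livers (log2 fold change 1.01 ± 0.21; limma, adjusted p = 0.0377). Ifngr1, a chain of the interferon γ receptor, had 608, 468 and 553 on fructose and 347, 320 and 364 on cornstarch at 9 months (log2 fold change 0.65 ± 0.14; limma, adjusted p = 0.0402). Rfx5 and Irf1 did not pass, with log2 fold changes at 9 months of 0.20 and 0.15, and Ifng itself had at most 2.73 in any library and 0 in 8 of them.

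In tumours Ifngr1 was higher still, with 1535, 1017 and 1082 in fructose tumours and 1152 and 1371 in cornstarch tumours (2.84-fold over liver; limma, adjusted p = 0.000121), and Ifngr2 rose with it. These were the 2 that rose among the 17 tested factors, while 1 fell, against 13.4% and 10.5% of all genes. The share that rose was near that of all genes, and the list's median log2 fold change was -0.025. Among 8 tested ligands for T cell costimulation and its checkpoints, 2 rose in tumours, Cd40 and Icosl, against 13.4% of all genes. Cd40 had 93.9, 83.3 and 57.4 in fructose tumours and 51.3 and 68.3 in cornstarch tumours, against 25.0, 8.96 and 28.1 in fructose livers and 8.68, 13.8 and 5.96 in cornstarch livers (4.89-fold; limma, adjusted p = 0.00128). By diet in liver none of the 8 passed at either age, and Cd80 and Cd86 rose over both ages, against 13.8% of all genes. Of 12 genes for peptide loading and class I-like molecules, Pdia3 and Tapbpl rose in tumours, and Hfe and Fcgrt, class I-like proteins of iron uptake and antibody transport, fell. Those counts of 2 of 12 either way are near the 13.4% and 10.5% of all genes. None of those 12 passed by diet in livers of either age.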

How the data were processed

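RNA-seq libraries had been made from total RNA with a poly(A) mRNA kit, per the labels' protocols. Per the submitters' processing notes the tools included STAR, RSEM, DESeq2, FastQC and Trim Galore, with GRCm38 as the build, and their versions and order are not given in the sources used here. All deposited values are a normalised signal per gene: the authors' read counts divided by a size factor for each library. Dividing by the smallest step of each library gave whole reads for 100% of values (tolerance 0.01), with totals of 11232461 to 38377674 reads, which set the precision of low genes. Of 47069 identifiers, 46488 were found in GENCODE M21, which gave positions, biotypes and exon lengths.

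The main test was limma 3.58.1 (R 4.3.3) on log2(normalised count + 1), with a mean per group and a trended prior, on genes with at least 10 in at least 2 libraries of the fit. Fold changes on this scale understate changes of low genes. Liver comparisons used the 11 livers (14317 genes) and tumour comparisons the 11 libraries at 9 months (14503 genes), and p-values were adjusted over all genes by Benjamini-Hochberg at 0.05. H2-M2 did not pass the filter in livers, so 34 members were tested there and 35 at 9 months. The limma test was also run on simulated counts for some of the comparisons, and its outcome there is not reported here. Replicate numbers follow accession order.

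Alternatives were edgeR 4.0.16 (quasi-likelihood) and DESeq2 1.42.0 on the recovered reads, upper-quartile and quantile scaling, other pseudocounts and filters, other sets of libraries and leaving out each library. Values for every library are given for the class II genes, H2-K1, H2-D1 and the genes of assembly and supply, and for other class I chains in the comparisons they passed. The rest are given by ranges and counts. The members and lists were chosen with earlier results of these data known. Marker lists covered Kupffer and dendritic cells, monocytes, neutrophils, B, T and NK cells, endothelium, cholangiocytes and hepatocytes. Results for some listed genes are not reported here.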

Additional observations from a re-analysis of the deposited data

Results flagged for a closer look

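Members were flagged where a difference between diet effects passed after adjustment, or where groups separated without overlap in opposite directions. By this rule 5 members were flagged: every 9-month liver lay above the 5-month livers under fructose and below them under cornstarch. The difference by diet at 9 months minus that at 5 months had an unadjusted p under 0.05 in all 5 (limma), which was not part of the rule. None passed after adjustment over all genes (limma, Benjamini-Hochberg). The share of all genes that met the rule was not computed, so the count of 5 has no baseline. Taken singly, 11.5% of all genes had such an unadjusted p (limma). Without overlap, 17.5% were higher at 9 months under fructose and 8.98% lower under cornstarch. The difference on the log2 scale was 1.57 ± 0.38 for Cd74 (limma, adjusted p = 0.11), 1.44 ± 0.31 for H2-Aa (limma, adjusted p = 0.0712) and 1.45 ± 0.31 for H2-Ab1 (limma, adjusted p = 0.0727). It was 1.40 ± 0.29 for H2-Eb1 (limma, adjusted p = 0.0712) and 0.68 ± 0.30 for H2-M3 (limma, adjusted p = 0.414). The 5-month fructose livers are the libraries with high neutrophil markers, and replicate 1 of each 5-month group is Xist-positive; their part in these differences was not tested.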

How the results depend on the processing

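The count of members called by diet at 5 months (2) was 4 with quantile normalisation, 1 with no filter, 0 with all 16 libraries in the fit, 5 with DESeq2 and 0 without the Xist-positive libraries, and ran between 0 and 5 with a library left out. At 9 months (5) it was 0 with the compared groups alone, 9 with DESeq2 and 0 without the Xist-positive libraries, and ran between 0 and 6. Over both ages (10) it was 4 with all 16 libraries and 2 without the Xist-positive libraries, and ran between 2 and 11. DESeq2 called 1 member by age and 4 for the difference between ages, where limma called 0. For tumour against liver (10) it was 2 within fructose and 1 within cornstarch, and ran between 0 and 12. The remaining counts stayed at 0 with any library left out. The class II median by diet at 5 months (0.31) turned to -0.13 with a filter at 50. That filter leaves out H2-DMb2, H2-Oa and H2-Ob, whose highest counts were 29.7, 11.4 and 41.1, so the median is over the remaining class II genes. The cause was not tested for the other shifts. The settings without the Xist-positive libraries and within a diet were chosen after seeing the data. Where a left-out library leaves a group with 1 sample, that sample is assumed to vary like the other groups. No paired analysis was possible because the labels carry no replicate numbers and do not tie tumours to livers. Low members (H2-Oa, H2-Ob, H2-DMb2, H2-Bl, H2-Q2 and H2-M2) are limited by depth.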
